A study of Homo sapiens with 42 samples.

Results

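The genes described here are 10 secreted regulators of WNT signalling, measured as raw read counts in human lung fibroblasts. The rule took rows of the count table by name, and all 10 were found among 28266 gene symbols. They are the ligands WNT5A, WNT5B and WNT16, the agonist RSPO3, the Dickkopf proteins DKK1, DKK2 and DKK3, and the secreted Frizzled-related proteins SFRP1, SFRP2 and FRZB (also called SFRP3). WNT ligands are lipid-modified glycoproteins that bind Frizzled receptors. With the co-receptors LRP5 and LRP6 they stabilise beta-catenin, which then switches on genes through TCF and LEF factors, whereas ligands such as WNT5A often act through ROR2 without beta-catenin. Secreted Frizzled-related proteins bind the ligands themselves, DKK1 and DKK2 bind LRP5 and LRP6, and R-spondins such as RSPO3 keep Frizzled receptors at the cell surface. DKK3 is the divergent member of the Dickkopf family, and its part in WNT signalling is less settled.

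Poly(A) RNA of 42 libraries was sequenced in 12 groups. IMR90 is an established strain of human lung fibroblasts. IMR90 ER:RAS cells also carry a fusion of RAS to the oestrogen receptor, which 4-hydroxytamoxifen (4OHT) activates to give oncogene-induced senescence (OIS). The ER:RAS cells received DMSO or 100 nM 4OHT and gave 18 libraries, 3 in each of 6 groups. The IMR90 cells received DMSO or bleomycin, a DNA-damaging agent, at 50 µg/ml for 24 h and gave 24 libraries, 4 in each of 6 groups. After 7 days of culture, all 12 groups received doxycycline at 1 µg/ml, which induced a control shRNA, COPB2 shRNA 1 or COPB2 shRNA 2, and cells were collected 72 h later, at day 10. The product of COPB2 belongs to the COPI coat of transport vesicles. Thus the DMSO controls of the ER:RAS line also carry the fusion gene, and every group carries an induced shRNA. The labels do not say whether the libraries of a group came from separate cultures. The study's supplement calls the replicates of its knockdown comparisons independent experiments, though it counts fewer of them for bleomycin than there are libraries here. Where libraries were not separate cultures, p-values measure only the spread between libraries.

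DKK1, WNT16 and FRZB had the largest changes with senescence among the members that reach 10 CPM (read count scaled to a common library size) in a group. For that reason the 250 bases before their annotated starts are shown, 5′ to 3′ on the gene's strand, from RefSeq (GRCh38.p14). The windows are chr10:52314031-52314280 for DKK1 (plus strand), chr7:121328750-121328999 for WNT16 (plus strand, before a start inside the gene's span) and chr2:182866638-182866887 for FRZB (minus strand). Capitals mark matches to the TCF/LEF motif CTTTGNN (ending in AA, AT, TA or TT, either strand) or to a TATA box (TATAAA, gene strand only), which do not overlap here.
DKK1: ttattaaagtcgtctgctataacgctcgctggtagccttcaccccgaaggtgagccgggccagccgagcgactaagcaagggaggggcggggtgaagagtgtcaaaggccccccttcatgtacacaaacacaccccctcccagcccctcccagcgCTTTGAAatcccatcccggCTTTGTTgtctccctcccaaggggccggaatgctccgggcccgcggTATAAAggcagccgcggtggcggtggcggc
WNT16: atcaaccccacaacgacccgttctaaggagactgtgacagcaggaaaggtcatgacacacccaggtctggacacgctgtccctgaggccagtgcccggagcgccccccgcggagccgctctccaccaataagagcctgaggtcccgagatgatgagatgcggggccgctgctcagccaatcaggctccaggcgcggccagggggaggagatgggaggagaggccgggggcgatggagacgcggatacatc
FRZB: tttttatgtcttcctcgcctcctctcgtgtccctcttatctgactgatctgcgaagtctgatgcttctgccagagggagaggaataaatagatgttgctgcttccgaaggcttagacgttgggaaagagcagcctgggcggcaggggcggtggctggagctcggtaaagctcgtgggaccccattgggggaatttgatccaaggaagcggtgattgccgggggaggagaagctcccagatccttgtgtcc

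DKK1 is a known target of beta-catenin, and its window held TCF/LEF matches ending 89 and 70 bases before the start and a TATA match ending 25 bases before it. None of these motifs was in the WNT16 or FRZB windows. The AP-1 motif TGANTCA, bound by factors downstream of RAS, the ATF4 motif TGATGNAA and the cAMP response element TGACGTCA were in none of the 3 windows (both strands searched). Across 35116 promoter windows of the same length, 12% held a TCF/LEF motif, 6.8% TATAAA, 6.57% TGANTCA, 3.14% TGATGNAA and 1.65% TGACGTCA. A match describes letters only, and 7 of 10 members had a promoter in the table used here.

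In RefSeq (GRCh38.p14), WNT5A lies at chr3:55465715-55505263, WNT5B at chr12:1617056-1647212, WNT16 at chr7:121325367-121341104 and RSPO3 at chr6:127118671-127199481. DKK1 lies at chr10:52314281-52317657, DKK2 at chr4:106921802-107036313 and DKK3 at chr11:11963036-12009745. SFRP1 lies at chr8:41261962-41309473, SFRP2 at chr4:153780591-153789083 and FRZB at chr2:182833275-182866637. The count table itself holds no positions. On the opposite strand, DKK3 overlaps USP47, WNT5B overlaps FBXL14 and DKK1 overlaps PRKG1-AS1, and while the study's methods give a first-strand setting for the alignment, the setting of the counting step is not given in the sources used here.

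Total counts per library ran from 13148194 to 23597310, and 3 counts, taken as the detection floor, corresponded to 0.114 to 0.265 CPM. COPB2, the targeted gene, was checked first. The 14 control-shRNA libraries had 262 to 629 CPM of it, and the 28 knockdown libraries had 33 to 123 CPM. All 11 fibroblast markers averaged over 1 CPM. Among markers of other cell types, 3 of 6 epithelial, 3 of 4 endothelial and 3 of 4 immune genes averaged at or under 1 CPM, and the remaining immune gene was CD68, a lysosomal protein. The summed immune level was 13.1 to 43.1 CPM in DMSO, 82.3 to 118 in 4OHT and 51.5 to 104 in bleomycin libraries. In the same order the summed endothelial level was 1.21 to 4.89, 8.70 to 13.8 and 2.01 to 3.87 CPM, and the epithelial level 77.8 to 220, 53.6 to 194 and 66.1 to 323 CPM. Summed fibroblast markers ran from 17780 to 30410 CPM in DMSO, 15810 to 24600 in 4OHT and 8389 to 22680 in bleomycin libraries. The part of these levels in the results was not tested. In the ER:RAS 4OHT group with the control shRNA, replicate 1 differed over 2-fold from the median of the group's other libraries in 3896 of 10638 genes, more than any other library.

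The members differed widely in level. Per kb of canonical transcript and with the control shRNA, DKK3 ranked highest in both lines and both states, with 354 ± 65.9 CPM per kb (SD, n = 3) in ER:RAS DMSO and 276 ± 57.9 (SD, n = 4) in IMR90 DMSO libraries. SFRP1 was next, with 186 ± 19.1 CPM per kb in ER:RAS DMSO and 130 ± 14.4 in IMR90 DMSO. Together both genes made up 76.9% to 92.5% of the members' summed level per kb in these 4 control-shRNA groups. WNT5A and WNT5B followed, at 20.5 ± 5.93 and 22.9 ± 2.84 CPM per kb in ER:RAS DMSO, a difference smaller than their spread. FRZB stood at 7.81 ± 1.33 and DKK1 at 2.12 ± 0.874 CPM per kb in that group, and WNT16, DKK2, RSPO3 and SFRP2 were under 0.4 in every library of it. The summed level per kb of the 6 Dickkopf and secreted Frizzled-related members was set against that of WNT5A, WNT5B and WNT16. It was 12.7 ± 2.39 times as high in ER:RAS DMSO and 3.81 ± 0.436 times in 4OHT (SD, n = 3). The ranges of 10.4 to 15.1 and 3.46 to 4.30 do not overlap. In IMR90 cells this ratio was 9.55 ± 2.19 in DMSO and 14.7 ± 1.37 after bleomycin (SD, n = 4), with ranges of 6.60 to 11.4 and 13.4 to 16.2. These ratios describe RNA per length and were not tested. DKK3, whose part in WNT signalling is less settled, is in the first sum. Other ligands, such as WNT7B and WNT2 described below, are not in the second, so the ratio is no balance of all antagonists and ligands. In bulk RNA, fewer cells of a kind and less RNA per cell cannot be told apart.

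**Figure D1:**
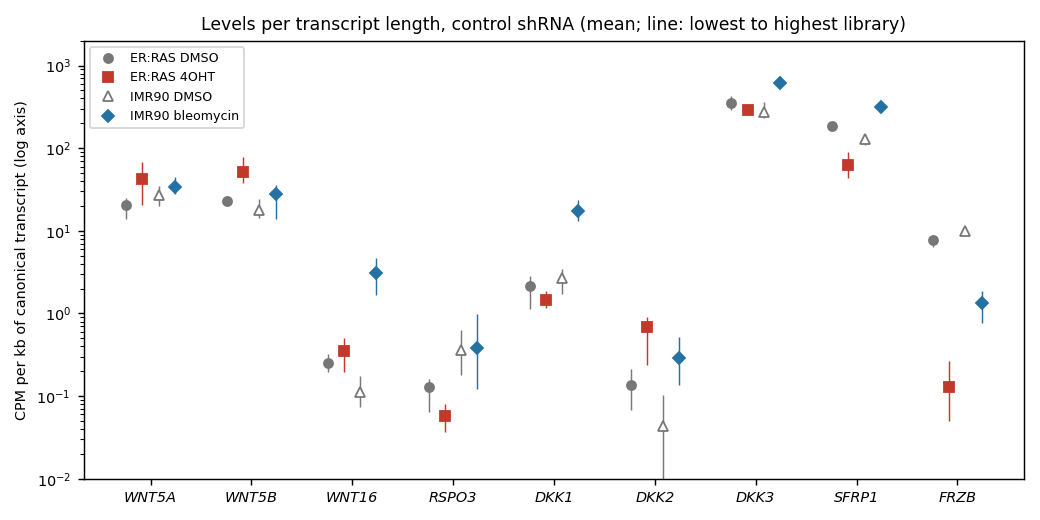
Level of 9 members in the 4 control-shRNA groups, in CPM per kb of canonical transcript on a log axis. Symbols are group means (n = 3 for ER:RAS, n = 4 for IMR90) and lines run from the lowest to the highest library, cut off at the axis for DKK2, which had no count in 1 IMR90 DMSO library. DKK3 and SFRP1 sit highest in all 4 groups and SFRP2, with 0 counts in both DMSO groups, is left out.

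The first question was how the members change in OIS. SFRP1 and FRZB were lower and WNT5B was higher in 4OHT than in DMSO with the control shRNA. These were 3 of the 9 members tested (edgeR quasi-likelihood test, Benjamini-Hochberg adjusted p under 0.05), while 35.7% of all 14297 genes tested were called, 15.5% as higher and 20.2% as lower. SFRP2 was too low to be tested in this line. The median log2 fold change was −0.37 over the members and −0.079 over all genes, and the latter became 0.045 with DESeq2 size factors. Under COPB2 shRNA 1, 6 members were called against 36.9% of all genes, and with shRNA 2, 7 members against 36.9%. SFRP1, FRZB and WNT5B were among those called with all 3 shRNAs. WNT16, DKK2 and RSPO3 were called with both COPB2 shRNAs. FRZB and RSPO3 passed the filter on low counts only through their DMSO libraries, so the counts of 3, 6 and 7 are not shares of members free to go either way. Both also enter the median of −0.37, which is therefore not a median of members free to go either way. With the replicate number as a block, 8 members were called with shRNA 1 (DKK1 and DKK3 added) and 8 with shRNA 2 (DKK1 added).

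The second question was the response to bleomycin in IMR90 cells. DKK1, DKK2, DKK3, SFRP1, SFRP2 and WNT16 were higher and FRZB was lower than in DMSO with the control shRNA. These were 7 of 10 members, beside 31.2% of the 14783 genes tested (15.4% higher and 15.8% lower). The median log2 fold change was 1.25 over the members and −0.014 over all genes. SFRP2 lies above that median both as fitted and at its lower bound given below. SFRP2 and DKK2 passed the filter on low counts only through their bleomycin libraries, so the count of 7 is not a share of members free to go either way. The same holds for the counts with the COPB2 shRNAs that follow. SFRP2 and DKK2 also enter the median of 1.25, which is therefore not a median of members free to go either way. For COPB2 shRNA 1 the same 7 members were called, against 35.2% of all genes. With shRNA 2, WNT5B was called as well, which made 8, against 40% of all genes.

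**Figure D2:**
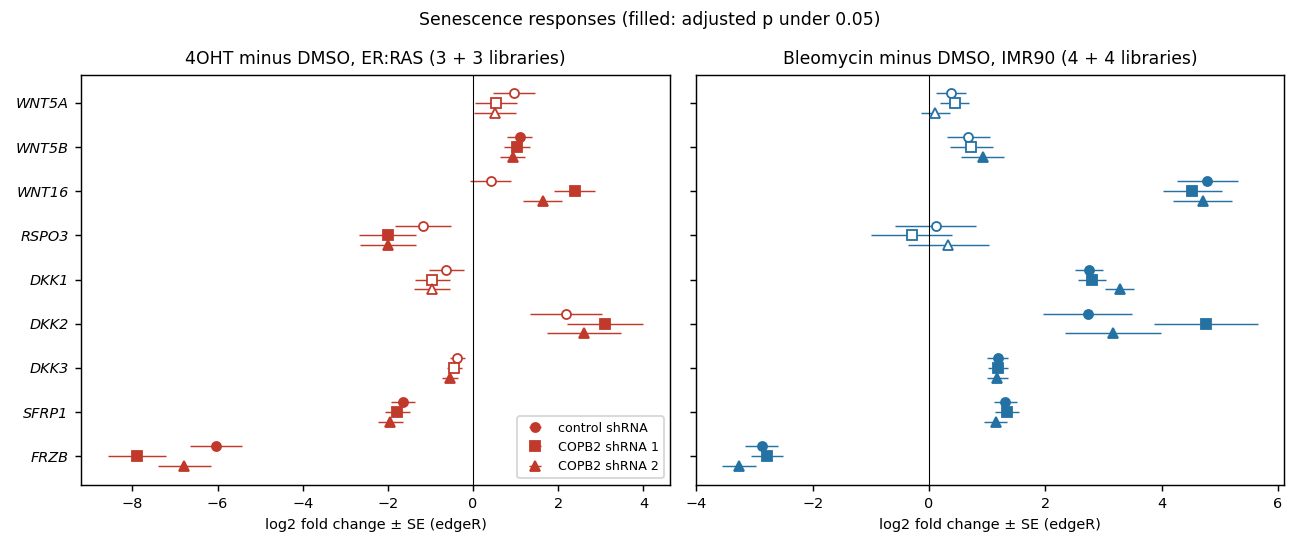
Log2 fold changes with their standard errors (horizontal axes, edgeR) of 9 members in 4OHT against DMSO (left, n = 3 per group) and in bleomycin against DMSO (right, n = 4 per group), for the control shRNA and both COPB2 shRNAs. Filled symbols passed the adjusted p of 0.05. SFRP1 lies left of 0 in OIS and right of 0 after bleomycin, and FRZB lies left of 0 in both. SFRP2 is not drawn because its DMSO groups had no counts with the control shRNA.

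WNT5A is the ligand best known for signalling through ROR2. In the ER:RAS control-shRNA libraries it had 133, 80.2 and 145 CPM in DMSO and 119, 223 and 393 CPM in 4OHT. The 4OHT libraries spread widely and overlapped those in DMSO. The log2 difference of 0.95 ± 0.50 (SE) did not pass the test (adjusted p = 0.155). In IMR90 cells it had 118, 164, 207 and 142 CPM in DMSO and 163, 174, 202 and 260 CPM after bleomycin. Again the groups overlapped, and the log2 difference was 0.38 ± 0.26 (adjusted p = 0.294). As designed, with no replicate block, WNT5A was not called in any of the 6 senescence comparisons, and its group means over all 12 groups differed by at most 2.05-fold.

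WNT5B, a close relative of WNT5A, had 48.5, 58.5 and 46.8 CPM in ER:RAS DMSO and 175, 90.1 and 85.4 CPM in 4OHT libraries. All 3 libraries with 4OHT lay above all 3 with DMSO. The log2 fold change was 1.10 ± 0.30 (adjusted p = 0.00878), and it was 1.03 ± 0.30 with COPB2 shRNA 1 (adjusted p = 0.0118) and 0.93 ± 0.29 with shRNA 2 (adjusted p = 0.0217). Replicate 1 of the 4OHT control group had the highest level, and without it the log2 fold change was 0.73 (adjusted p = 0.0569). Dropping the other groups from the fit gave an adjusted p of 0.0565. Under shRNA 1 the call was lost without DMSO replicate 3 or 4OHT replicate 1, and with shRNA 2 it was lost without replicates 2 or 3 of DMSO or replicates 1 or 2 of 4OHT, with an adjusted p of at most 0.0873. In IMR90 cells WNT5B had 53.7, 31.7, 40.8 and 32.2 CPM in DMSO and 70.5, 81.4, 66.8 and 31.4 CPM after bleomycin. Replicate 4 was the lowest bleomycin library, inside the DMSO range, and this held with all 3 shRNAs (31.4, 24.5 and 29 CPM). The log2 difference was 0.68 ± 0.36 (adjusted p = 0.173), and it was 0.93 (adjusted p = 0.00771) with replicate 4 left out of the 3 bleomycin groups. With shRNA 2 the log2 fold change was 0.92 ± 0.37 (adjusted p = 0.0487), a call kept in 3 of 8 fits that each left out 1 of the libraries compared (adjusted p up to 0.242) and lost without the filter on low counts or when the other groups were dropped (adjusted p = 0.0746 and 0.0770). The fits that lost it were those without replicates 2, 3 or 4 of DMSO or replicates 1 or 2 of bleomycin, and without bleomycin replicate 2 the value was 0.55.

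WNT16 is a ligand with known roles in bone and in stress-exposed fibroblasts. It was scarce in DMSO, with 0.293, 0.235, 0.559 and 0.327 CPM in the IMR90 control-shRNA libraries, from 5 to 11 counts each. After bleomycin the same line gave 10.2, 5.31, 14.7 and 8.29 CPM. Every bleomycin library lay above every DMSO library. WNT16 rose by 4.78 ± 0.53 on the log2 scale (27.6-fold, adjusted p = 7.50e-07), and by 4.53 ± 0.51 and 4.71 ± 0.51 with COPB2 shRNA 1 and 2. With the control shRNA, ER:RAS cells had 0.617, 0.747 and 1.03 CPM in DMSO and 0.618, 1.13 and 1.61 CPM in 4OHT, which overlapped, with a log2 difference of 0.41 ± 0.48 (adjusted p = 0.561). With COPB2 shRNA 1 it had 0.725, 0.303 and 0.884 CPM in DMSO and 3.32, 2.84 and 4.69 CPM in 4OHT. With shRNA 2 these were 1.23, 0.910 and 1.82 CPM in DMSO and 2.77, 4.37 and 6.02 CPM in 4OHT. In both cases the 4OHT libraries lay above all DMSO libraries, and the log2 fold changes were 2.39 ± 0.48 (adjusted p = 0.000993) and 1.63 ± 0.46 (adjusted p = 0.0105). Without DMSO replicate 2 of shRNA 2 the latter was 1.40 (adjusted p = 0.0533).

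RSPO3, the R-spondin of the set, was near the floor in ER:RAS cells. It had 6, 12 and 16 counts (0.309, 0.747 and 0.787 CPM) in the DMSO control libraries and 2, 4 and 6 counts (0.176, 0.267 and 0.385 CPM) in 4OHT. The groups overlapped, and the log2 difference was −1.18 ± 0.66 (adjusted p = 0.185). With COPB2 shRNA 1 and 2 the groups did not overlap, and RSPO3 fell by 2.01 ± 0.67 (adjusted p = 0.0279) and 2.00 ± 0.65 (adjusted p = 0.0251) on the log2 scale. In this line RSPO3 passed the filter on low counts only through its DMSO libraries, so these calls are not free to go either way. Each call rested on few counts. It was lost with shRNA 1 without DMSO replicate 3 or 4OHT replicates 1 or 2 (adjusted p up to 0.133), and with shRNA 2 without DMSO replicate 3 or 4OHT replicates 1 or 2 (up to 0.116). Without 4OHT replicate 3, the log2 fold changes were −2.86 and −2.68. In IMR90 cells RSPO3 had 0.878, 3.01, 0.965 and 2.07 CPM in DMSO and 0.986, 1.01, 0.590 and 4.77 CPM after bleomycin. Replicate 4 was the highest bleomycin library with each shRNA (4.77, 3.91 and 5.08 CPM). The log2 difference of 0.11 ± 0.70 (adjusted p = 0.929) became −0.96 (adjusted p = 0.167) with replicate 4 left out of the 3 bleomycin groups.

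DKK1, the antagonist that blocks LRP5 and LRP6, responded to bleomycin. It had 3.10, 4.98, 6.25 and 4.96 CPM in IMR90 DMSO and 23.8, 32.1, 28.8 and 42.5 CPM after bleomycin with the control shRNA. The groups were far apart. DKK1 rose by 2.75 ± 0.24 on the log2 scale (6.70-fold, adjusted p = 4.43e-08), and by 2.80 ± 0.24 and 3.28 ± 0.25 with COPB2 shRNA 1 and 2. In ER:RAS cells it had 4.37, 2.06 and 5.07 CPM in DMSO and 2.12, 2.47 and 3.34 CPM in 4OHT. These overlapped, and the log2 difference was −0.63 ± 0.41 (adjusted p = 0.265). It was −0.96 ± 0.42 (adjusted p = 0.0858) and −0.97 ± 0.42 (adjusted p = 0.0822) with COPB2 shRNA 1 and 2. With the replicate block both were called (−0.86, adjusted p = 0.0335, and −0.89, adjusted p = 0.0286), and the mean over the 3 shRNAs was −0.85 ± 0.24 (adjusted p = 0.00627). The printed DKK1 window is the one with TCF/LEF matches, whereas WNT16, which also rose after bleomycin, had none in its window. Such a motif was in 12% of all promoter windows, and its part in these changes was not tested.

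DKK2, which binds the same co-receptors, was scarce. It had 0, 1, 4 and 7 counts in the IMR90 DMSO control libraries and 26, 10, 35 and 10 counts after bleomycin, or 0 to 0.381 against 0.502 to 1.88 CPM. Every bleomycin library lay above every DMSO library. The log2 fold change was 2.73 ± 0.77 (adjusted p = 0.00894), and without DMSO replicate 4 it was 3.56. In IMR90 cells DKK2 passed the filter on low counts only through its bleomycin libraries, so its calls there are not free to go either way. The shRNA 1 libraries held 1, 2, 1 and 0 counts in DMSO and 10 to 53 counts after bleomycin (log2 fold change 4.76 ± 0.89). For shRNA 2 the log2 fold change was 3.16 ± 0.82, and 4.01 without DMSO replicate 3. In ER:RAS cells DKK2 had 9, 4 and 16 counts in DMSO and 10, 48 and 52 counts in 4OHT, which is 0.463, 0.249 and 0.787 against 0.882, 3.20 and 3.34 CPM. All 4OHT values lay above those in DMSO, and the log2 difference of 2.19 ± 0.84 missed the threshold (adjusted p = 0.0555). Over 6 alternatives the adjusted p ran from 0.000320 to 0.0542, and in 5 of them DKK2 was called. It was called with COPB2 shRNA 1 (3.10 ± 0.90, adjusted p = 0.0130) and shRNA 2 (2.60 ± 0.87, adjusted p = 0.0278). Without DMSO replicate 3 these became 5.28 and 3.68. The call with shRNA 2 was lost without DMSO replicates 1 or 2 or 4OHT replicate 3 (adjusted p up to 0.0872).

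DKK3 was the most abundant member per kb. It had 906, 605, 587 and 685 CPM in IMR90 DMSO and 1533, 1914, 1449 and 1339 CPM after bleomycin with the control shRNA. No library overlapped, and DKK3 rose by 1.18 ± 0.18 on the log2 scale (2.26-fold, adjusted p = 3.18e-05). With COPB2 shRNA 1 and 2 the log2 fold changes were 1.19 ± 0.18 and 1.17 ± 0.18. In ER:RAS cells it had 872, 1069.8 and 739 CPM in DMSO and 802, 709 and 692 CPM in 4OHT. The groups overlapped and the log2 difference was −0.37 ± 0.18 (adjusted p = 0.127). With shRNA 2 it fell by 0.55 ± 0.18 on the log2 scale (adjusted p = 0.0262), but this call was lost with DESeq2 size factors (adjusted p = 0.140), with the Wald test of DESeq2, without the filter on low counts, with only the libraries compared, and without 5 of the 6 libraries when each was left out in turn (adjusted p up to 0.219). It held without DMSO replicate 3 and with the replicate block (−0.54, adjusted p = 0.00282). With shRNA 1, DKK3 was called with the block (−0.45, adjusted p = 0.00967), and the mean over the 3 shRNAs was −0.45 ± 0.10 (adjusted p = 0.00142).

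SFRP1 binds WNT ligands through a Frizzled-like domain, and it changed in opposite directions in both models. In ER:RAS cells with the control shRNA it had 929, 776 and 788 CPM in DMSO and 195, 247 and 401 CPM in 4OHT. Every 4OHT library lay below every DMSO library. SFRP1 fell by 1.64 ± 0.29 on the log2 scale (3.12-fold lower, adjusted p = 0.000341). In IMR90 cells it had 593, 606, 490 and 639 CPM in DMSO and 1537, 1433, 1504 and 1219 CPM after bleomycin. Here every bleomycin library lay above every DMSO library. The log2 fold change was 1.31 ± 0.20 (2.49-fold higher, adjusted p = 3.85e-05). The COPB2 shRNA groups gave −1.78 ± 0.29 and −1.95 ± 0.29 in OIS, and 1.34 ± 0.20 and 1.14 ± 0.20 after bleomycin.

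SFRP2, its close relative, had no count in the 7 DMSO control-shRNA libraries of both lines. The 4OHT control libraries held 5, 6 and 10 counts (0.441, 0.400 and 0.642 CPM), and the bleomycin control libraries held 16, 2, 12 and 15 counts (0.752, 0.119, 0.644 and 0.753 CPM). Against a floor of 3 counts per DMSO library, the mean level was at least 3.04-fold higher in 4OHT and at least 3.59-fold higher in bleomycin. For shRNA 1 these bounds were 1.81 and 3.75, and the latter was 1.89 without bleomycin replicate 4, which held 29 of the 45 counts. With shRNA 2 the bound in 4OHT was 1.60, and in IMR90 cells 1 of the 4 DMSO libraries held 1 count. SFRP2 counted over 3 in 17 of 42 libraries in all, and these bounds cover counting error only.

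FRZB was the member that fell in both models. In ER:RAS cells with the control shRNA it had 21.8, 23.4 and 16.6 CPM in DMSO and 0.706, 0.133 and 0.193 CPM in 4OHT, the latter from 8, 2 and 3 counts. Against the floor of 3 counts, replicate 2 lay below it, replicate 3 at it and replicate 1 above it. In this line FRZB passed the filter on low counts only through its DMSO libraries. Its calls here are thus not free to go either way. The log2 fold change was −6.04 ± 0.60 (adjusted p = 1.67e-06), and summed counts gave a DMSO level 65.6 times that in 4OHT (95% exact interval 38.2 to 124, counting error only). Without 4OHT replicate 1, the highest of the 3, the log2 fold change was −6.95. The COPB2 shRNA groups gave log2 fold changes of −7.89 ± 0.69 and −6.78 ± 0.62, from 4 and 11 counts in all in the 4OHT libraries. Without 4OHT replicate 2 the latter was −7.52. In IMR90 cells FRZB had 24.3, 28.6, 23.5 and 29.4 CPM in DMSO and 2.02, 4.95, 2.84 and 4.47 CPM after bleomycin. All bleomycin libraries lay below all DMSO libraries. FRZB fell by 2.88 ± 0.28 on the log2 scale (7.35-fold lower, adjusted p = 1.61e-07), and by 2.79 ± 0.28 and 3.27 ± 0.28 with COPB2 shRNA 1 and 2.

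**Figure D3:**
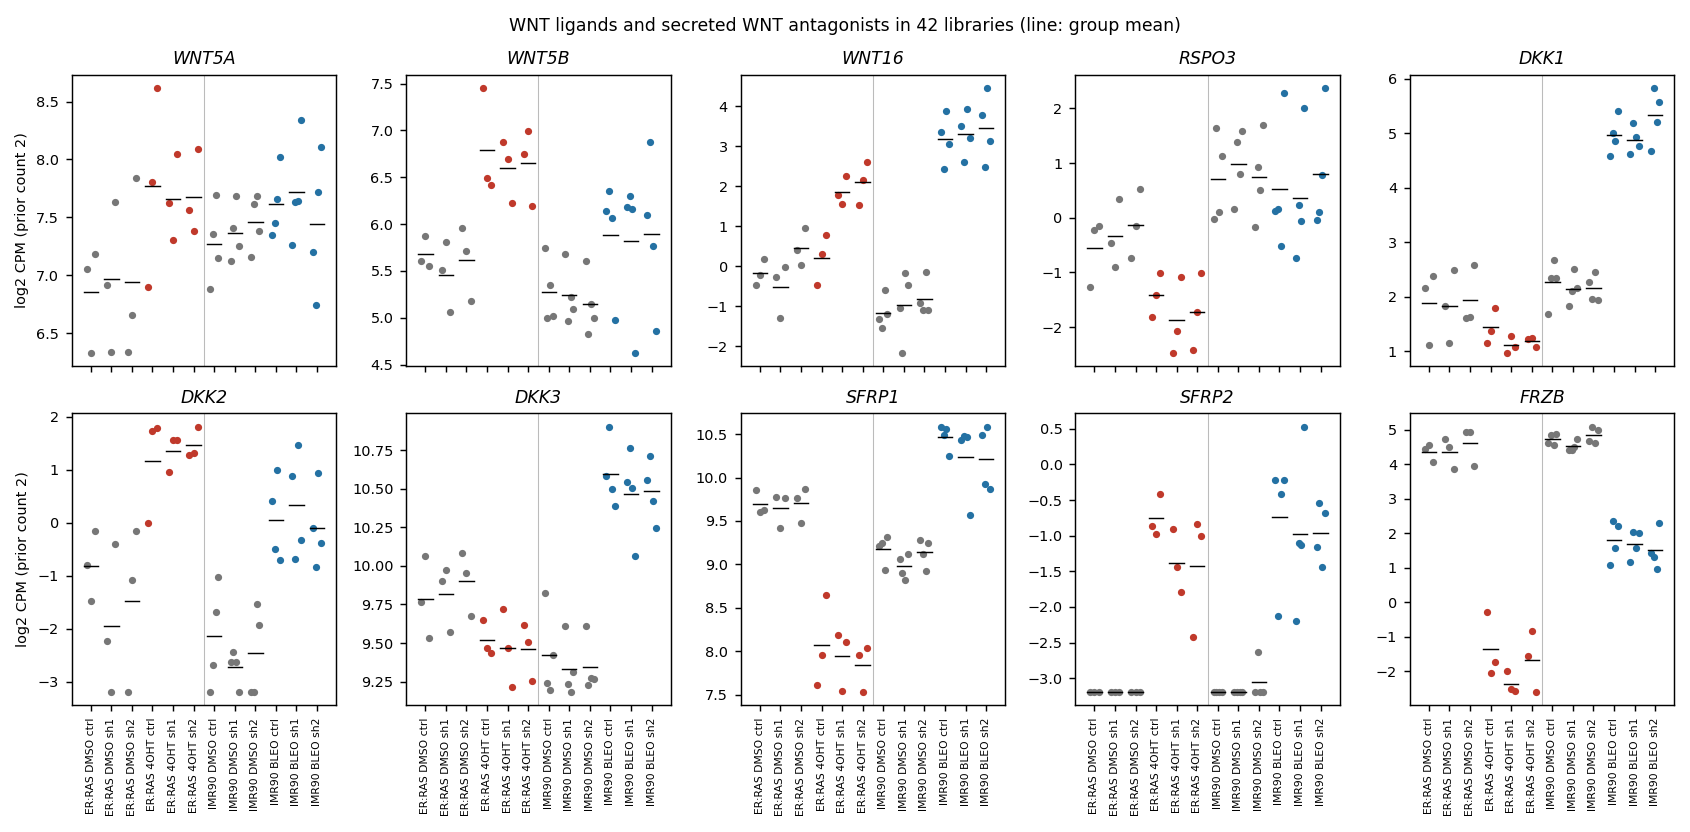
Level of each member in all 42 libraries, as log2 CPM with a prior count of 2 (vertical axes, each with its own range). Points are libraries, black lines are means of the 12 groups, grey is DMSO, red 4OHT and blue bleomycin, with the control shRNA (ctrl) and COPB2 shRNAs (sh1, sh2) side by side. FRZB falls in both models, SFRP1 falls in 4OHT and rises in bleomycin, and WNT16 rises in 4OHT libraries with a COPB2 shRNA; SFRP2 values at −3.2 are libraries with 0 counts.

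The difference between both senescence responses was itself tested in a fit of all 42 libraries (4OHT minus DMSO in ER:RAS cells, less bleomycin minus DMSO in IMR90 cells, control shRNA). SFRP2, with 0 counts in both DMSO groups, could not be called. The response was lower in OIS for WNT16, DKK1, SFRP1, FRZB and DKK3. These were 5 of the other 9 members, all in 1 direction, while 20.3% of the 15299 genes tested were called and 12.1% were called as lower. In ER:RAS cells alone, FRZB and RSPO3 passed the filter on low counts only through DMSO libraries. In IMR90 cells alone, DKK2 passed it only through bleomycin libraries. Which groups carried members past the filter of this fit was not examined. The count of 5 may therefore not be a share of members free to go either way. The difference in log2 fold change was −4.31 ± 0.74 for WNT16 (adjusted p = 5.00e-05) and −3.31 ± 0.44 for DKK1 (adjusted p = 7.72e-07). It was −2.91 ± 0.32 for SFRP1 (adjusted p = 3.30e-08) and −1.49 ± 0.27 for DKK3 (adjusted p = 0.000135). For FRZB, which fell in both models, it was −3.12 ± 0.58 (adjusted p = 0.000146), and −4.08 without replicate 1 of the 4OHT control group. WNT5A (0.63 ± 0.50), WNT5B (0.50 ± 0.53), DKK2 (−0.48 ± 1.09) and RSPO3 (−1.24 ± 1.13) did not pass the test. Model and cell line cannot be told apart in this design.

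Before senescence, ER:RAS and IMR90 cells in DMSO with the control shRNA were compared in the same fit. SFRP2 had 0 counts in all 7 libraries compared. None of the other 9 members was called by edgeR or by DESeq2, 2 had an unadjusted p under 0.05, and 0.346% of all genes were called. SFRP1 was 0.53 ± 0.22 higher on the log2 scale in ER:RAS cells (776 to 929 against 490 to 639 CPM, adjusted p = 0.367). WNT16 was 1.19 ± 0.55 higher (0.617 to 1.03 against 0.235 to 0.559 CPM, adjusted p = 0.417). For both genes the libraries of the lines did not overlap. This was also so for FRZB (−0.34 ± 0.34) and RSPO3 (−1.47 ± 0.74), which were lower in ER:RAS cells. None of these differences passed the test, and the share of all genes without overlap was not counted.

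The effect of COPB2 knockdown was tested separately in DMSO and senescent cells of both lines. In ER:RAS cells no member was called in DMSO or 4OHT with either shRNA (edgeR), where 0.00699%, 0.14%, 0.00699% and 0.224% of all genes were called with shRNA 1 in DMSO, shRNA 1 in 4OHT, shRNA 2 in DMSO and shRNA 2 in 4OHT. Of 36 member tests, 3 had an unadjusted p under 0.05, and DESeq2 called 1. In IMR90 cells, leaving out SFRP2, no member was called by edgeR or DESeq2, 0 of 36 tests had an unadjusted p under 0.05, and the share of all genes called was 0.00676% in 3 of the 4 comparisons and 0.0744% with shRNA 2 in bleomycin. With the replicate block there were again 0 member calls in IMR90 cells, while 11 gene calls with shRNA 2 in bleomycin became 28, 1 with shRNA 1 in bleomycin became 3 and 1 with shRNA 2 in DMSO became 2. DKK3 moved least, with log2 differences from −0.09 to 0.09 over 8 comparisons (SE up to 0.18). SFRP1 differences ran from −0.31 to −0.005 (SE up to 0.28), those of WNT5A from −0.27 to 0.18 (SE up to 0.49) and those of WNT5B from −0.27 to 0.11 (SE up to 0.36).

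WNT16 in 4OHT had the largest rise of any member with knockdown. The 4OHT libraries held 0.618, 1.13 and 1.61 CPM with the control shRNA, 3.32, 2.84 and 4.69 CPM with COPB2 shRNA 1 and 2.77, 4.37 and 6.02 CPM with shRNA 2. All 6 knockdown libraries lay above all 3 control libraries. The share of all genes with such a separation was not counted. With shRNA 1 and 2 in 4OHT, 462 and 640 of 14297 genes had an unadjusted p under 0.05 by edgeR. The log2 difference was 1.65 ± 0.46 with shRNA 1 (unadjusted p = 0.00288 by edgeR, adjusted p = 0.561) and 1.93 ± 0.47 with shRNA 2 (unadjusted p = 0.000860 by edgeR, adjusted p = 0.178), and neither passed the test over all genes. DESeq2 gave adjusted p-values of 0.103 and 0.00947. In DMSO the differences were −0.32 ± 0.49 and 0.70 ± 0.48, and in bleomycin they were 0.12 ± 0.41 and 0.38 ± 0.41. The knockdown effect in 4OHT exceeded that in DMSO by 1.98 ± 0.67 with shRNA 1 and 1.22 ± 0.66 with shRNA 2 on the log2 scale (adjusted p = 1 for both). In this test of the difference edgeR called no gene (0%) in either line with either shRNA, where 121 to 285 genes had an unadjusted p under 0.05. DESeq2 called 8 and 12 genes in ER:RAS cells and 0 in IMR90 cells, and no member was among them. FRZB differed by −1.83 ± 0.76 with shRNA 1 in 4OHT (unadjusted p = 0.0291 by edgeR, adjusted p = 1), from 4 counts against 13.

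**Figure D4:**
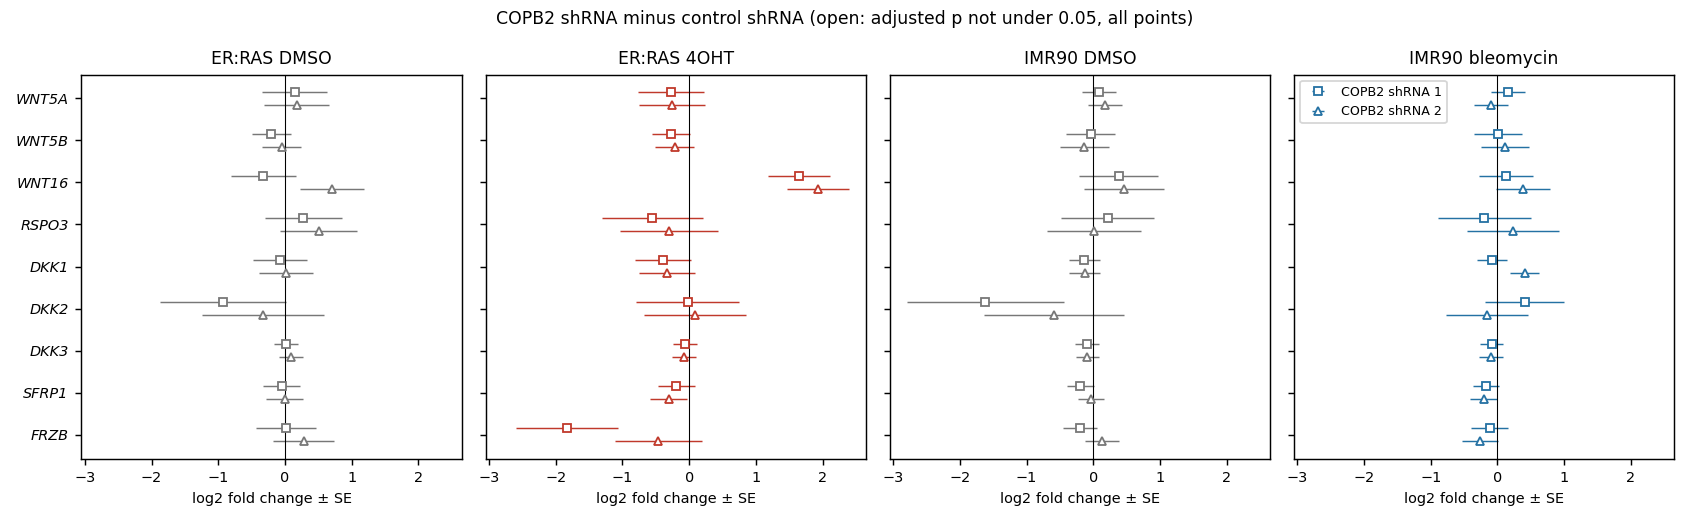
Log2 fold change with its standard error (horizontal axes) of 9 members with knockdown by either COPB2 shRNA, relative to control-shRNA libraries of the 4 cell states (n = 3 per ER:RAS group, n = 4 per IMR90 group). No point passed the adjusted p of 0.05, so all symbols are open. WNT16 in 4OHT stands apart at 1.65 and 1.93, and SFRP2 is left out because of its zero counts.

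Genes whose 12 group means followed a member most closely (Pearson r of mean log2 CPM, among 10334 genes with at least 10 CPM in a group) were taken for the 7 members that reach this level. They were NKRF (r = 0.972) and SLC2A13 (0.970) for WNT5A, PSMD2 (0.996) and HMGA1 (0.996) for WNT5B, and TSLP (0.980) and RETSAT (0.974) for WNT16. For DKK1 they were FAS (0.979) and ABCG2 (0.978), and for DKK3 ACO1 (0.984) and FUCA2 (0.984). For SFRP1 they were BAIAP2L1 (0.992) and BTG2 (0.990), and for FRZB TMEM176A (0.997) and BMP4 (0.996). These describe 12 points that share cell line and treatment, and over the 42 libraries 0 of the 14 genes were again among the nearest 2. There the nearest were C1R and C1S for FRZB (r = 0.988 and 0.986) and PAPPA and PCNA for DKK1 (r = 0.952 and 0.937).

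Other genes of the pathway were read from 6 lists, in the same control-shRNA comparisons. Of 7 other WNT ligands tested in OIS, 4 rose and 1 fell, with a median log2 fold change of 1.36, beside 15.5% higher, 20.2% lower and a median of −0.079 over all genes. WNT7B rose from 0.631 ± 0.0488 to 71.8 ± 6.83 CPM (SD, n = 3; log2 fold change 6.73 ± 0.22, adjusted p = 3.55e-11), and WNT2 went from 27.1 to 35.4 CPM in the DMSO libraries to 0 counts in the 4OHT libraries. After bleomycin, 2 of 6 rose (WNT4 and WNT2B) and 1 fell (WNT2), with a median of 0.0041, beside 15.4% higher, 15.8% lower and a median of −0.014 over all genes. WLS, which carries WNT ligands to the cell surface, rose by 2.69 ± 0.21 in OIS (adjusted p = 1.24e-07) and by 0.69 ± 0.15 after bleomycin (adjusted p = 0.00125) on the log2 scale. PORCN, the enzyme that adds their lipid, rose in OIS (1.63 ± 0.27, adjusted p = 0.000180) and had 0.48 ± 0.22 after bleomycin (adjusted p = 0.0985). Among other secreted regulators, NDP, a ligand of FZD4, rose and RSPO2 fell among 2 tested in OIS, and SFRP4 and NDP rose among 3 tested after bleomycin, where SFRP4 reached 0.570 ± 0.142 CPM (SD, n = 4). That is near the cutoff of 0.560 CPM of the filter on low counts, and the log2 fold change of SFRP4 was 3.66 ± 0.64. With the control shRNA SFRP4 thus lay under that cutoff in DMSO, so its call is not one free to go either way. Which state carried the other list genes past the filter was not examined.

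Receptors bind the ligands at the cell surface. In OIS 7 of 17 receptors and co-receptors fell and 1 rose (median log2 fold change −0.76), and after bleomycin 8 of 18 fell and 2 rose (median −0.44), where 20.2% and 15.8% of all genes fell and 15.5% and 15.4% rose. ROR2, the WNT5A receptor, fell by 5.10 ± 0.46 in OIS (30.4 ± 9.32 to 0.917 ± 0.353 CPM, adjusted p = 6.10e-07) and by 2.10 ± 0.25 after bleomycin (55.4 ± 8.10 to 12.9 ± 5.15 CPM, adjusted p = 2.04e-06). FZD8 rose in both, by 4.78 ± 0.30 (adjusted p = 1.51e-08) and 2.33 ± 0.31 (adjusted p = 6.38e-06). Of 18 intracellular components, 4 rose and 4 fell in OIS (median −0.021), and 0 rose and 6 fell after bleomycin (median −0.18). CTNNB1, which encodes beta-catenin, had −0.04 ± 0.18 and 0.04 ± 0.12 (adjusted p = 0.906 and 0.832). Among 7 feedback targets of beta-catenin tested, AXIN2, TNFRSF19 and APCDD1 fell in both models. AXIN2, an inhibitor of the pathway, went from 5.54 ± 0.163 to 1.59 ± 0.280 CPM in OIS (adjusted p = 6.90e-05) and from 10.3 ± 1.22 to 3.49 ± 0.851 CPM after bleomycin (adjusted p = 1.01e-06). LEF1, NKD2 and TCF7 rose in OIS (LEF1 and TCF7 are also counted as intracellular), whereas none of these 7 rose after bleomycin. DKK1, also a known target of beta-catenin, is a member and so not on this list. It rose by 2.75 ± 0.24 on the log2 scale after bleomycin. In the knockdown comparisons no list gene was called by edgeR.

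**Figure D5:**
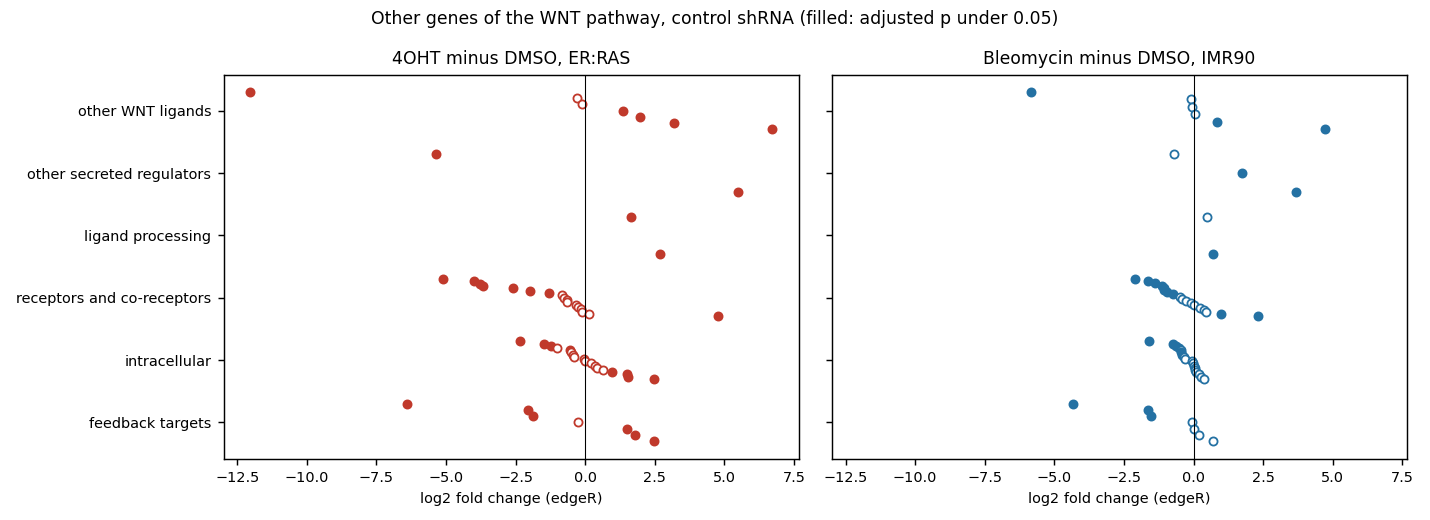
Log2 fold change (horizontal axes, edgeR) of the other WNT pathway genes tested, by list, in 4OHT against DMSO (left, n = 3 per group) and bleomycin against DMSO (right, n = 4 per group) with the control shRNA. Each point is a gene, filled where the adjusted p passed 0.05. Filled receptor points lie mostly left of 0, and the leftmost ligand point is WNT2, whose fitted value in OIS is set against 0 counts.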

How the data were processed

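Whole-number counts per gene symbol were deposited by the authors in 1 table of 28266 symbols and 42 libraries, of which 3476 symbols had no counts. The libraries were single-end poly(A) RNA from a directional kit. The submitters' processing notes name hg38, DRAGEN, STAR 2.7.8a and DESeq2 1.32.0, whereas the study's methods name Tophat and hg19. The methods give a first-strand setting for that alignment, and the setting of the counting step is not given in the sources used here. Positions and promoters are those of RefSeq GRCh38.p14, and transcript lengths are those of GENCODE canonical transcripts.

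Counts were tested with the quasi-likelihood test of edgeR 4.0.16 (limma 3.58.1, R 4.3.3), with TMM scaling, the edgeR filter on low counts and Benjamini-Hochberg adjustment over all genes tested. ER:RAS libraries (14297 genes), IMR90 libraries (14783 genes) and all 42 libraries (15299 genes) were fitted separately, each with 1 mean per group, over 20 comparisons. A call is an adjusted p under 0.05, SE is the standard error, and CPM uses the TMM-scaled library size. Alternatives were DESeq2 1.42.0 (its size factors or its Wald test), no filter, a replicate block, only the libraries compared, the mean over the 3 shRNAs, and leaving out libraries. Depth was 13148194 to 23597310 counts, and counting intervals and the floor of 3 counts cover counting error only. The lowest chi-square per degree of freedom between 2 libraries of a group was 7.15, so none was counted as a duplicate. Libraries of equal replicate number were taken as paired where every pair's deviations from the group means correlated at over 0.1. This held in 6 of 14 comparisons of 2 groups: 4OHT against DMSO with each COPB2 shRNA (r from 0.407 to 0.763) and the 4 knockdown comparisons in IMR90 cells (r from 0.101 to 0.786). The procedure was tested on simulated counts.

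All 10 members are described. Other pathway genes were named as at most 2 called higher and 2 called lower per list with the largest changes. CTNNB1, AXIN2 and the third feedback target of each direction were named after their values were seen. Genes most alike were the nearest 2 per member with at least 10 CPM in a group. Members and lists were chosen with earlier results of these data known.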

Additional observations from a re-analysis of the deposited data

Results flagged for a closer look

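Single libraries stood far from the others of their group in 5 of the 60 member-by-group sets of 4 libraries (7 with DESeq2 size factors), by the gap to the nearest library over the group's range, which chance gives in about 1 in 20 sets. Both WNT5B and SFRP1 were lowest in replicate 4 of the IMR90 bleomycin group with COPB2 shRNA 1, at 24.5 and 757 CPM (gap over range 0.913 and 0.952). DKK3 stood high in replicate 1 of the IMR90 DMSO group with shRNA 2, at 782 CPM (0.869). SFRP2 had 1 count in replicate 2 of that group and none in its other libraries (1), and 2 counts in replicate 2 of the bleomycin control group (0.898). Where all other libraries of a group have no count, any count gives a value of 1. The first of these SFRP2 flags was therefore fixed in advance.

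The response in OIS differed from the response to bleomycin, by a test of the difference itself, for WNT16 (−4.31 on the log2 scale), DKK1 (−3.31), SFRP1 (−2.91), FRZB (−3.12) and DKK3 (−1.49).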

How the results depend on the processing

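In OIS with the control shRNA, 3 members were called, against 8 for the mean over the 3 shRNAs (WNT16, DKK1, DKK2, DKK3 and RSPO3 added), 5 with the DESeq2 Wald test and 7 with the replicate block (WNT5A among those added, 0.86, adjusted p = 0.0139). The knockdown comparisons in ER:RAS cells had 0 member calls, against 1 with the DESeq2 Wald test and 2 with the replicate block (WNT16 in 4OHT with both shRNAs, adjusted p = 0.0277 and 0.00629). For members called with both COPB2 shRNAs in OIS, leaving out 1 library gave 3 to 6 against 6, the fewest without DMSO shRNA 2 replicate 2. The cause of these differences was not tested. In 8 of 14 comparisons of 2 groups, not every pair of same-numbered libraries correlated at over 0.1, so these were not taken as paired. Such comparisons included OIS and bleomycin with the control shRNA and knockdown in ER:RAS cells. This rule does not show that the libraries were unpaired. Over all group pairs, correlations of same-numbered libraries ran from −0.55 to 0.90 in ER:RAS and from −0.47 to 0.79 in IMR90 cells, 35 of 45 and 45 of 60 were over 0.1, and 30 of 45 and 34 of 60 were best with their own number. In the 6 paired comparisons the block added the DKK1 and DKK3 calls given above and changed no other member call. Uncalled values changed sign for RSPO3 after bleomycin (−0.15 with the block, −0.96 with replicate 4 left out of the bleomycin groups, −0.96 to 0.55 leaving out 1 library) and with shRNA 2 (−0.57, and −0.57 to 0.76), for WNT5A after bleomycin with shRNA 2 (−0.15, and −0.15 to 0.31), and for WNT16 with knockdown in bleomycin (−0.11 to 0.41 with shRNA 1, −0.036 to 0.67 with shRNA 2). None of the 14 genes most alike was the same over 42 libraries (0). Over all genes, 5098 calls in OIS became 7274 with the block, 2911 with only the libraries compared and 8398 for the mean over shRNAs, and 4614 after bleomycin became 8726 for that mean. With COPB2 shRNA 2, 5915 calls after bleomycin became 3734 with only the libraries compared. Knockdown calls in 4OHT, 20 and 32 with shRNA 1 and 2, were 50 and 74 with the DESeq2 Wald test, 44 and 76 with the block and 0 with only the libraries compared. In bleomycin with shRNA 2, 11 calls became 35, 28 and 1 under these settings, 6 without the filter and 5 without replicate 4. Calls between the lines, 53, became 168, 202 and 2. Knockdown calls in DMSO were 0 to 3 throughout. Over all member values and alternatives, 894 kept direction and call, 24 gained a call, 34 lost one and 12 changed sign. Depth limits SFRP2, DKK2, RSPO3 and FRZB in 4OHT.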
